A study of Mus musculus with 8 samples.

Results

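The vitamin A genes described here are 10 members of the route by which the intestinal epithelium takes up, stores and uses retinoids: Isx, Bco1, Rbp2, Lrat, Adh1, Rdh7, Dhrs3, Aldh1a1, Aldh1a3 and Cyp26b1. They were chosen by name as rows of both deposited tables, and all 10 were found among the 40178 genes that either table lists. RNAseq of intestinal epithelial cells (IECs) from colon and ileum was used to compare mice with and without the RNA helicase DDX5 in the epithelium. The series holds 8 libraries, 2 for each genotype in each tissue, from 4 mice. Every mouse carried Villin1Cre, a Cre recombinase driven by the promoter of an epithelial gene, so that controls and knockouts share the transgene. WT mice were Ddx5+/+ Villin1Cre+, and DDX5ΔIEC mice were Ddx5fl/fl Villin1Cre+, in which Cre removes the floxed part of Ddx5 from epithelial cells. The labels give an age of 8 weeks, the mice were cohoused littermates, and the cells were those that EDTA washes release from the gut wall, a fraction enriched for epithelium that other cells can enter. The ileum is the distal end of the small intestine.

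Vitamin A reaches the gut as retinyl esters, which are hydrolysed in the lumen, and as plant carotenes, which BCO1 cleaves inside the enterocyte. The retinal and retinol so made are held by a binding protein of the RBP family, esterified by LRAT and exported in chylomicrons. A small share is oxidised in 2 steps, from retinol to retinal and from retinal to retinoic acid, the ligand of the nuclear receptors RAR and RXR, and enzymes of the CYP26 family destroy the retinoic acid again. ISX, an intestine-specific homeobox factor, closes a feedback loop: it is induced by retinoic acid and represses carotene uptake and cleavage.

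The libraries held 11571061 to 22984283 counts on genes. Ddx5, the targeted gene, lay between 700.3 and 771 CPM (counts scaled to library size) in the 4 WT libraries and between 326 and 367 CPM in the 4 DDX5ΔIEC libraries, in the direction of the labels in both tissues. Epithelial markers (8 genes) summed to 10979 to 18183 CPM in every library, against 15.8 to 1013 CPM for 10 leukocyte markers and 8.34 to 20.4 CPM for 8 markers of stroma and vessel. Cd74 was the largest of the leukocyte markers, with group means from 10.7 CPM in DDX5ΔIEC colon to 678 CPM in WT ileum. Absorptive enterocyte markers (11 genes) summed to 15105 to 23342 CPM in the ileum and 462 to 668 CPM in the colon, which matches the labelled tissues. Replicates were least alike in DDX5ΔIEC: the SD of the log2 difference between the 2 libraries of a group was 0.367 in WT colon, 0.443 in WT ileum, 0.547 in DDX5ΔIEC colon and 0.654 in DDX5ΔIEC ileum. In DDX5ΔIEC ileum replicate 2, 19.5% of the counts were taken by 3 genes made of repeats (Gm21738, Gm10800 and Gm10801), and at most 4.04% in any other library. With 2 libraries against 2, an exact permutation test cannot give a two-sided p under 0.333, so each test below is edgeR's quasi-likelihood test fitted across all genes.

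RefSeq promoters on GRCm38.p6 were found for 9 of the 10 genes (all but Aldh1a3), in 13 entries of 250 bases before and 50 bases after a start. They are shown for Bco1 and Rbp2, which hold a nuclear receptor half-site close to the start, and for Aldh1a1, the gene that passed the genotype test. The bases before the start are given 5′ to 3′ on the plus strand, and capitals mark 2 motifs searched on both strands. The first is AGGTCA, read as TGACCT on the opposite strand, which is the half-site of nuclear receptors such as RAR, RXR and PPAR. The second is TTTATG, read as CATAAA on the opposite strand, which is a core of sites of the intestinal CDX factors. Bco1 is at chr8:117095615-117095864, Rbp2 at chr9:98490287-98490536, and the 2 starts of Aldh1a1 at chr19:20492333-20492582 and chr19:20601718-20601967.
Bco1: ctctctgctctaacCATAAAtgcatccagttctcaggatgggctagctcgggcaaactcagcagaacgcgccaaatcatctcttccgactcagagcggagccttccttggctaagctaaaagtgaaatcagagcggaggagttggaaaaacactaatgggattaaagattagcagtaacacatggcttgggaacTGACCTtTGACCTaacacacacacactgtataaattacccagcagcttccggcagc
Rbp2: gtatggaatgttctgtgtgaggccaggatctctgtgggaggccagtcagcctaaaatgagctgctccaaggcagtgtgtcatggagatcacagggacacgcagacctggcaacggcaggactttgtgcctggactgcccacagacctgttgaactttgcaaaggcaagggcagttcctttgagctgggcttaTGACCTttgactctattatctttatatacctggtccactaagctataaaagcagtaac
Aldh1a1, first start: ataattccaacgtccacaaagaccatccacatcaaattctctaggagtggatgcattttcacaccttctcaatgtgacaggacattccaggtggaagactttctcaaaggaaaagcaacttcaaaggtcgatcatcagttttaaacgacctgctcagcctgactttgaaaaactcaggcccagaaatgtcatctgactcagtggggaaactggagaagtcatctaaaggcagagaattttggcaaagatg
Aldh1a1, second start: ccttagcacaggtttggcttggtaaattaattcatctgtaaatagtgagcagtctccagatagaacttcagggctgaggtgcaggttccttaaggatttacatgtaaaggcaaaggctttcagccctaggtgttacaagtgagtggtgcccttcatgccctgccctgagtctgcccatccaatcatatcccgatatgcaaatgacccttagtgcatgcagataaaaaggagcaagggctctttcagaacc

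The half-site occurred in 3 of the 13 entries: Bco1, Rbp2 and 1 of the 2 entries of Rdh7. Of all 32851 promoters of this length, 16.3% hold it. In Bco1 it occurred as a direct repeat, starting 56 and 49 bases before the start with 1 base between, and a search made after this sequence was seen found such a repeat in 13 of the 32851 promoters. In Rbp2 a single half-site began 58 bases before the start. TTTATG occurred in Bco1 and in the same entry of Rdh7, and in 11.9% of all promoters. TAATTA, a core of homeodomain sites that overlaps neither of the others, occurred in none of the 13 entries and in 5.29% of all promoters. These matches describe the letters only.

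The levels of several of these genes differed between the regions of the gut. In WT mice, 6 of the 9 that could be tested differed between ileum and colon, with Rbp2, Rdh7, Lrat and Bco1 higher in the ileum and Adh1 and Aldh1a1 higher in the colon. With 1 WT library left out, 3 or 4 of the 9 were called. Of all 16178 genes tested, 17.4% were higher and 16.8% lower in the ileum. In DDX5ΔIEC mice 7 of the 9 differed, with Isx added to those higher in the ileum, and with Adh1 and Aldh1a3 lower there, against 18% higher and 17.3% lower of all genes. In bulk IECs, fewer cells of a type and less RNA per cell cannot be told apart. Colonocyte markers (7 genes) summed to 4522 to 6405 CPM in the colon and 2558 to 3076 CPM in the ileum, and the enterocyte markers given above also separated the tissues. The colonocyte list was not uniform: in WT, 4 of the 7 were lower in the ileum, among them Car1 (log2 ratio -9.57) and Aqp8 (-8.41), and 3 were higher there, Car4 (1.07), Ceacam20 (1.04) and Muc3 (0.78). The part of these markers in the regional differences was not tested.

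Rbp2, the retinol-binding protein of the small intestinal enterocyte, was at 144 and 353 CPM in the WT ileum and at 4.67 and 4.31 CPM in the WT colon. In DDX5ΔIEC it was at 226 and 199 CPM in the ileum and at 14.0 and 6.11 CPM in the colon. No colon library came near an ileum library, while the 2 WT ileum libraries differed more from each other than from DDX5ΔIEC. The log2 ratio, ileum over colon, was 5.79 ± 0.53 (SE) in WT, adjusted p = 1.01e-04, and 4.41 ± 0.49 in DDX5ΔIEC, adjusted p = 2.70e-04. The Rbp2 gene lies at chr9:98486115-98509781 on the plus strand of GRCm38, the build of all positions below.

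Rdh7 (chr10:127884028-127888817, minus strand), a microsomal retinol dehydrogenase of the short-chain family, was almost absent from the colon, with 2 and 0 reads in WT and 1 and 0 in DDX5ΔIEC. In the ileum it had 67 and 57 reads in WT (3.09 and 3.95 CPM) and 31 and 51 reads in DDX5ΔIEC (2.90 and 5.46 CPM). The ratio of ileum to colon was 71.7 in WT (95% exact interval 19.4 to 599) and 164 in DDX5ΔIEC (28.6 to 6561), intervals that cover counting error only. edgeR called both, adjusted p = 4.81e-04 and 3.60e-04. Of the 50-base words of Rdh7, 12.9% also occur in 8 related genes, among them Rdh1, Rdh9, Rdh16 and Hsd17b6, and since the counts are of reads with a unique position, reads from those stretches may be missing from its count.

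Adh1 (chr3:138260991-138290698, plus strand), the class I alcohol dehydrogenase, which oxidises retinol when it is plentiful, ran the other way. It was at 529 and 436 CPM in WT colon and 696 and 456 CPM in DDX5ΔIEC colon, but at 34.2 and 36.4 CPM in WT ileum and 30.2 and 20.8 CPM in DDX5ΔIEC ileum. The log2 ratio, ileum over colon, was -3.77 ± 0.26 in WT and -4.50 ± 0.27 in DDX5ΔIEC, with adjusted p of 2.08e-05 and 1.13e-05. An antisense gene, Gm16559, overlaps exons of Adh1, and whether the counting used the strand is not given in the sources used here.

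The remaining regional differences were smaller. Lrat (chr3:82892579-82903973, minus strand), which esterifies retinol for storage and export, was at 10.1 and 9.24 CPM in WT colon and 25.4 and 36.6 CPM in WT ileum. Its log2 ratio was 1.68 ± 0.40 in WT (adjusted p = 0.0128) and 1.54 ± 0.42 in DDX5ΔIEC (adjusted p = 0.0212). Bco1 (chr8:117095854-117133720, plus strand) was at 1.26 and 1.32 CPM in WT colon and 3.69 and 2.71 CPM in WT ileum, with log2 ratios of 1.32 ± 0.42 in WT (adjusted p = 0.0423) and 1.84 ± 0.40 in DDX5ΔIEC (adjusted p = 0.00803). Aldh1a1 was at 86.9 and 117 CPM in WT colon and 30.4 and 48.8 CPM in WT ileum, with a log2 ratio of -1.37 ± 0.43 in WT (adjusted p = 0.0401) and of -0.58 ± 0.42 in DDX5ΔIEC (adjusted p = 0.322). For none of these 3 genes did the WT groups overlap, but the share of all genes without overlap between the regions was not computed.

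Isx (chr8:74873173-74893506, plus strand) was at 35.8 and 47.0 CPM in WT colon and 92.1 and 97.7 CPM in WT ileum, which do not overlap, yet the log2 ratio of 1.20 ± 0.53 missed the threshold (adjusted p = 0.121). In DDX5ΔIEC it was called, at 1.87 ± 0.55 (adjusted p = 0.0297). Aldh1a3 (chr7:66390890-66427517, minus strand), 1 of the retinal dehydrogenases, was low throughout, at 2.26 and 1.54 CPM in WT colon and 0.508 and 0.902 CPM in WT ileum. Its log2 ratio was -1.46 ± 0.51 in WT (adjusted p = 0.0561) and -2.32 ± 0.56 in DDX5ΔIEC (adjusted p = 0.0132). Dhrs3 (chr4:144892827-144928209, plus strand), which reduces retinal back to retinol, was the member most even across the gut, between 17.8 and 29.8 CPM in all 8 libraries, with log2 ratios of -0.10 ± 0.22 and -0.21 ± 0.23 (adjusted p = 0.767 and 0.505).

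Of these regional calls, those of Rbp2, Rdh7 and Adh1 held with each library of the genotype left out in turn. In WT, Bco1 and Aldh1a1 lost the call with any of the 4 libraries left out (adjusted p from 0.0767 to 0.216 and from 0.0711 to 0.214), and Lrat without WT colon replicate 1 or 2 or WT ileum replicate 2 (0.0692, 0.0842 and 0.0842). In DDX5ΔIEC, Isx lost it without ileum replicate 1 or 2 (0.0619 and 0.0744), Bco1 without ileum replicate 1 (0.0519), Lrat without ileum replicate 2 (0.0759), and Aldh1a3 without colon replicate 1 or ileum replicate 1 (0.0528 and 0.0746). Without colon replicate 1, Aldh1a1 and Dhrs3 passed the threshold in DDX5ΔIEC, with log2 ratios of -1.16 and -0.54 (adjusted p = 0.0140 and 0.0408). DESeq2 gave WT Aldh1a1 an adjusted p of 0.0531. Isx and Aldh1a3 in WT and Aldh1a1 in DDX5ΔIEC were each called in another planned fit that kept all 8 libraries.

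**Figure D1:**
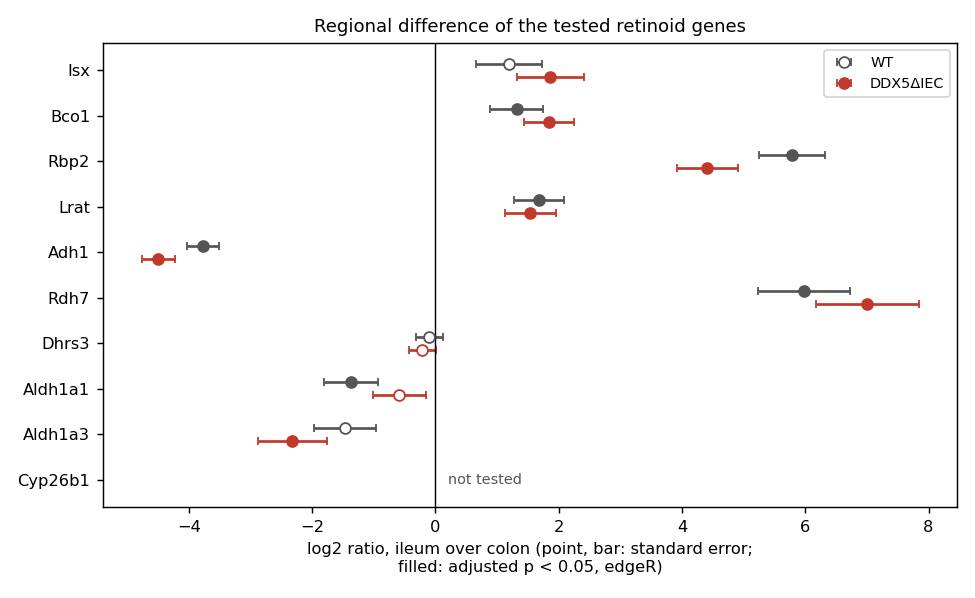
Log2 ratio of ileum to colon (x axis) of each tested gene, in WT (grey) and DDX5ΔIEC (red). Points are edgeR estimates from 8 libraries with standard errors, filled where the adjusted p is under 0.05. Rbp2 (5.79 in WT) and Rdh7 (5.99) lie far to the right, Adh1 (-3.77) far to the left, and Dhrs3 (-0.10) next to 0.

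Per length of transcript, the order of the genes also differed between the tissues. In WT colon, Adh1 was highest at 216 ± 29.2 CPM per kilobase (SD, n = 2), followed by Isx (23.1 ± 4.42) and Aldh1a1 (20.6 ± 4.27), which lie within each other's spread, and by Dhrs3 (8.51 ± 0.910) and Rbp2 (4.67 ± 0.265). Lrat (1.81 ± 0.111), Bco1 (0.507 ± 0.0167) and Aldh1a3 (0.411 ± 0.110) came next, the last of these within its spread of Bco1. In WT ileum, Rbp2 led at 258 ± 154 CPM per kilobase, followed by Isx (52.9 ± 2.24) and Adh1 (15.8 ± 0.705). Aldh1a1 (8.02 ± 2.63) did not separate from Dhrs3 (7.94 ± 0.465) or Lrat (5.79 ± 1.47) beyond their spread, while both Dhrs3 libraries lay above both Lrat libraries. Rdh7 (2.10 ± 0.363), Bco1 (1.26 ± 0.274), Aldh1a3 (0.153 ± 0.0604) and Cyp26b1 (0.0561 ± 0.00601) were lowest.

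**Figure D2:**
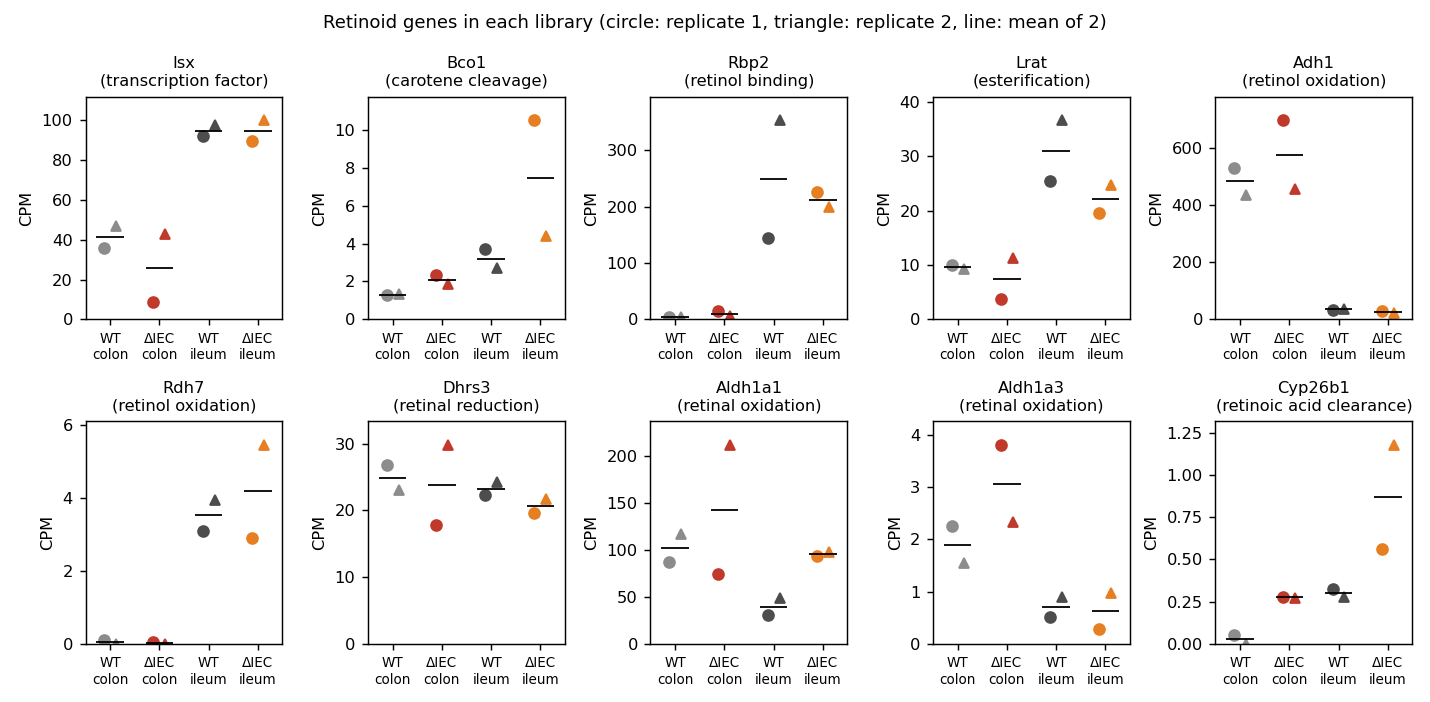
Each panel plots 1 gene in CPM on an axis from 0 (y axis), by group (x axis). Points are the 2 libraries of a group and the line is their mean. Aldh1a1 in DDX5ΔIEC ileum (93.7 and 97.4 CPM) lies above WT ileum (30.4 and 48.8 CPM), and Isx splits in DDX5ΔIEC colon (8.77 and 42.8 CPM).

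The genotypes were then compared within the ileum. Of the 9 genes tested there, 1 passed an adjusted p of 0.05, against 0.697% of all 14068 genes: Aldh1a1, a cytosolic retinal dehydrogenase that makes retinoic acid. The annotation, which holds another version of its identifier, places it at chr19:20492715-20643465 on the plus strand. It was at 30.4 and 48.8 CPM in WT and at 93.7 and 97.4 CPM in DDX5ΔIEC. Both DDX5ΔIEC libraries lay above both WT libraries. The log2 fold change was 1.31 ± 0.17 (SE), about 2.49-fold, with adjusted p = 0.00788 in edgeR with the replicate number as a block.

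The size of this difference held more firmly than its call. Without the block the log2 fold change was 1.28 with adjusted p = 0.305, and in a fit of all 8 libraries it was 1.28 with adjusted p = 0.373. Leaving out WT ileum replicate 1 gave 0.97, WT ileum replicate 2 gave 1.65, DDX5ΔIEC ileum replicate 1 gave 1.30 and replicate 2 gave 1.27, in 7-library fits without the block whose adjusted p ran from 0.309 to 0.786. DESeq2 with the block gave 1.32 with adjusted p = 3.11e-05. Aldh1a7, the only gene that shares 50-base words with Aldh1a1 (3.06% of them), was at 5.31 and 6.31 CPM in WT ileum and 10.1 and 6.32 CPM in DDX5ΔIEC ileum, with a log2 fold change of 0.51 ± 0.26 and adjusted p = 0.466.

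Bco1, the carotene-cleaving enzyme, had the next largest difference among the tested members. It was at 3.69 and 2.71 CPM in WT ileum (80 and 39 reads) and at 10.5 and 4.39 CPM in DDX5ΔIEC ileum (112 and 41 reads), so the groups did not overlap but DDX5ΔIEC replicate 1 was far above replicate 2. The log2 fold change was 1.18 ± 0.28, unadjusted p = 0.00150 and adjusted p = 0.103 in edgeR. Bco1 thereby met the study's criterion for protein-coding genes (log2 fold change beyond 0.5 either way and unadjusted p under 0.05) but not the adjusted threshold. Without DDX5ΔIEC ileum replicate 1 its log2 fold change was 0.43. Without a filter on low counts its edgeR adjusted p was 4.77e-04, in a fit that called many more genes in all than the main fit. At the criterion, Aldh1a1 and Bco1 were higher and no member was lower, against 3.78% higher and 2.83% lower of 12064 protein-coding genes.

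The other ileal genes did not pass. Lrat was at 25.4 and 36.6 CPM in WT and 19.5 and 24.7 CPM in DDX5ΔIEC, without overlap, with a log2 fold change of -0.47 ± 0.15 (edgeR, adjusted p = 0.228). Adh1 was at 34.2 and 36.4 CPM in WT and 30.2 and 20.8 CPM in DDX5ΔIEC, also without overlap, at -0.48 ± 0.17 (adjusted p = 0.296). Dhrs3 was the third to lie lower without overlap, at -0.17 ± 0.15 (adjusted p = 0.729). In all, 5 of the 9 had groups that did not overlap, 2 higher and 3 lower in DDX5ΔIEC, against 39.5% of all genes.

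Isx, the repressor of carotene uptake, was level in the ileum, with 92.1 and 97.7 CPM in WT, 89.6 and 100.0 CPM in DDX5ΔIEC and a log2 fold change of -0.00 ± 0.14. Rbp2 differed by -0.09 ± 0.27 and Rdh7 by 0.20 ± 0.29. Aldh1a3 rested on 11 and 13 reads in WT and 3 and 9 in DDX5ΔIEC and differed by -0.25 ± 0.58. Their adjusted p ran from 0.847 to 0.999. Summed enterocyte markers were at 17566 and 18742 CPM in WT ileum and 23342 and 15105 CPM in DDX5ΔIEC, and colonocyte and leukocyte markers also overlapped between the genotypes there. Goblet markers (6 genes) did not, at 27569 and 23627 CPM in WT ileum and 33271 and 29026 CPM in DDX5ΔIEC. By gene, Tff3, Spink4 and Zg16 did not overlap, none passed the adjusted threshold, and their part in the ileal values was not tested.

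**Figure D3:**
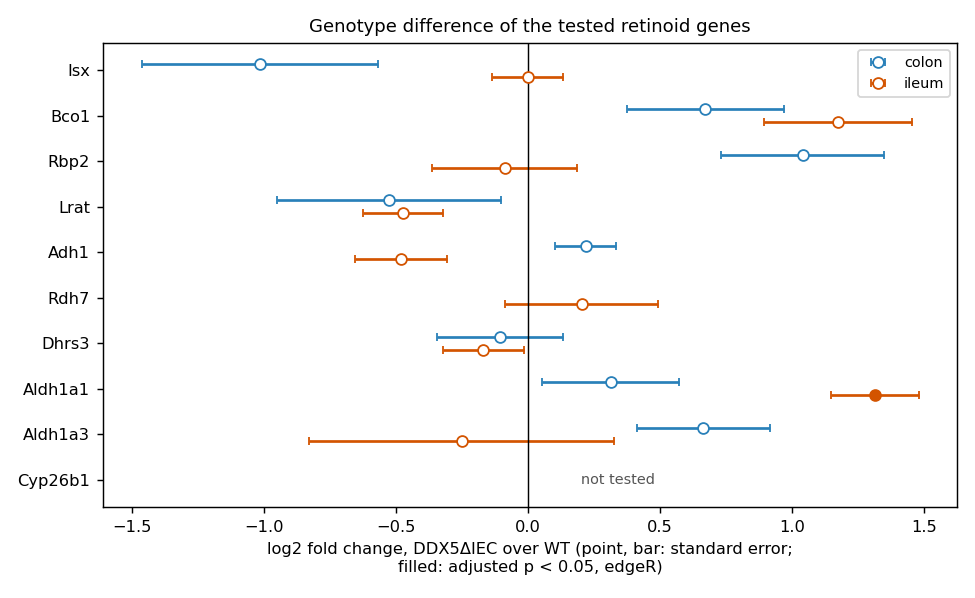
Log2 fold change of DDX5ΔIEC over WT (x axis) of each tested gene in colon (blue) and ileum (orange), with standard errors from edgeR. The filled point, Aldh1a1 in the ileum (1.31), is the only value with an adjusted p under 0.05; Bco1 lies to the right in both tissues (0.67 and 1.18) and Lrat to the left (-0.53 and -0.47).

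Within a library, the ratio of 2 genes does not depend on scaling between libraries. Per kilobase, Aldh1a1 was at 0.402 and 0.606 of Adh1 in the WT ileum and at 1.41 and 2.12 of it in the DDX5ΔIEC ileum. Aldh1a1 counts per kilobase were thus below those of Adh1 in both WT ileum libraries and above them in both DDX5ΔIEC ileum libraries. In the colon the ratio was 0.0744 and 0.121 in WT and 0.0482 and 0.210 in DDX5ΔIEC, and the genotypes overlapped. This pair was chosen after its values were seen, and no test was made of the ratio.

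**Figure D4:**
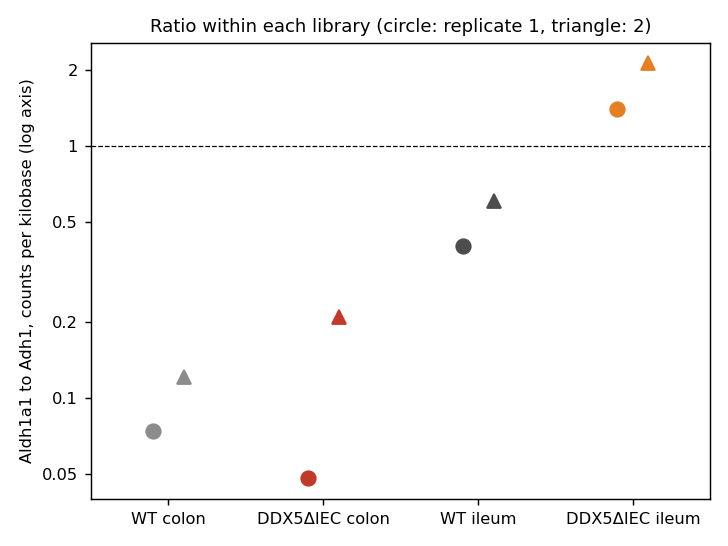
Ratio of Aldh1a1 to Adh1 in counts per kilobase within each library (y axis, log scale) by group (x axis). Both DDX5ΔIEC ileum libraries (1.41 and 2.12) lie above the dashed line at 1, and the other 6 lie below it.

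In the colon, none of the 8 genes tested passed an adjusted p of 0.05, nor did any of 15362 genes (0%) in edgeR, of which 1836 had an unadjusted p under 0.05. The count over all genes was 116 with DESeq2, and none of the 8 was among them. Rbp2 and Aldh1a3 met the study's criterion, both higher in DDX5ΔIEC, against 2.64% higher and 4.01% lower of 12557 protein-coding genes. The groups did not overlap for 3 of the 8 (Rbp2, Bco1 and Aldh1a3, all higher), against 44.6% of all genes.

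Rbp2 in the colon was at 4.67 and 4.31 CPM in WT (89 and 98 reads) and at 14.0 and 6.11 CPM in DDX5ΔIEC (254 and 134 reads). Its log2 fold change was 1.04 ± 0.31 (edgeR, unadjusted p = 0.0207, adjusted p = 0.340), or 0.44 without DDX5ΔIEC colon replicate 1 and 1.64 without replicate 2. Aldh1a3 was at 2.26 and 1.54 CPM in WT and at 3.81 and 2.32 CPM in DDX5ΔIEC, with 0.66 ± 0.25 (edgeR, unadjusted p = 0.0469, adjusted p = 0.412), and did not meet the criterion without the block (unadjusted p = 0.102) or in DESeq2 (0.311). Bco1 was at 1.26 and 1.32 CPM in WT and at 2.32 and 1.87 CPM in DDX5ΔIEC, with 0.67 ± 0.30 (adjusted p = 0.459).

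For Isx, Lrat and Aldh1a1 the 2 DDX5ΔIEC colon libraries lay far apart. Isx was at 35.8 and 47.0 CPM in WT colon and at 8.77 and 42.8 CPM in DDX5ΔIEC, so that replicate 1 alone lay below WT. Its log2 fold change of -1.02 ± 0.45 (edgeR, adjusted p = 0.457) became -2.24 with adjusted p = 0.00551 without DDX5ΔIEC colon replicate 2, and 0.05 without replicate 1. Lrat was at 10.1 and 9.24 CPM in WT and 3.75 and 11.2 CPM in DDX5ΔIEC (-0.53 ± 0.42, adjusted p = 0.651), with WT in between. Aldh1a1 was at 86.9 and 117 CPM in WT and 74.1 and 212 CPM in DDX5ΔIEC (0.31 ± 0.26, adjusted p = 0.663), again with WT in between.

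Dhrs3 (-0.11 ± 0.24) and Adh1 (0.22 ± 0.12) overlapped between the genotypes in the colon, with adjusted p of 0.879 and 0.518. Some marker sums moved with genotype there. Those of absorptive enterocyte markers overlapped, at 499 and 462 CPM in WT colon and 491 and 668 CPM in DDX5ΔIEC. So did those of stroma and vessel, at 16.6 and 20.4 CPM in WT against 17.3 and 8.66 CPM. The 10 leukocyte markers summed to 117 and 113 CPM in WT colon and to 15.8 and 31.7 CPM in DDX5ΔIEC, with Cd79a at 0 in 3 of the 4 libraries. Cd74 was the largest of them, at a mean of 81.6 CPM in WT colon and 10.7 CPM in DDX5ΔIEC colon. All 7 leukocyte markers that were tested had log2 fold changes below 0, and 4 of them met the criterion. The 6 goblet markers summed to 45319 and 50375 CPM in WT against 26870 and 40235 CPM. Of these 6, Clca1 (log2 fold change -1.57) and Fcgbp (-0.61) met the criterion, while Muc2 (0.09) and Zg16 (0.12) lay slightly above 0 and overlapped. The 7 colonocyte markers summed to 4522 and 4906 CPM in WT against 6060 and 6405 CPM, with 5 of them higher at the criterion and Car1 at 0.01. No marker of these lists passed the adjusted threshold between the genotypes in the colon. Stem and cycling markers (7 genes) were at 413 CPM in DDX5ΔIEC colon replicate 1, the library low in Isx and Lrat, and at 550 to 594 CPM in the other 3. Mki67 and Top2a were the largest of them, at means of 263 and 201 CPM in WT colon. By gene, Lgr5 (log2 fold change 0.46) and Olfm4 (0.84, from a mean of 0.505 CPM in WT) lay higher in DDX5ΔIEC without overlap. Top2a (-0.43) lay lower without overlap, and Ascl2, Smoc2, Mki67 and Pcna overlapped. The part of these markers in the colonic values was not tested.

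Cyp26b1 (chr6:84571414-84593908, minus strand), which degrades retinoic acid, was below the filter on low counts in each fit. It had 1 and 0 reads in WT colon and 5 and 6 in DDX5ΔIEC colon, and 7 and 4 in WT ileum and 6 and 11 in DDX5ΔIEC ileum. The ratio of DDX5ΔIEC to WT was 11.5 in the colon (95% exact interval 1.67 to 494) and 2.79 in the ileum (1.23 to 6.58). These intervals cover counting error within the pooled libraries and not the spread between mice. A member this rare is measured only to within such limits at this depth.

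Whether the genotype difference itself differed between colon and ileum was tested as an interaction over all 8 libraries. None of the 9 genes tested passed, against 0.0124% of all 16178 genes (2 genes), with unadjusted p of at least 0.0606. The smallest unadjusted p were those of Adh1, with a difference between tissues of -0.72 ± 0.33 in log2 fold change (edgeR, unadjusted p = 0.0606), and of Rbp2 at -1.38 ± 0.65 (unadjusted p = 0.0651). For Aldh1a1 it was 0.79 ± 0.60 (unadjusted p = 0.227), so that its ileal difference was not shown to be absent from the colon. All adjusted p were close to 1. Without DDX5ΔIEC colon replicate 2, the interaction of Isx was 2.24. Rbp2 was called only without a filter on low counts, at -1.40 with an edgeR adjusted p of 3.35e-06, in a fit that called many more genes in all.

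A wider list of 56 vitamin A genes, 55 of which the tables list, gave the setting. None of the 35 tested in the colon or the 37 tested in the ileum passed the adjusted threshold. Their median log2 fold change was -0.03 in the colon and 0.13 in the ileum, against -0.00 for all genes in both. At the study's criterion, 4 were higher and 6 lower in the colon, where the shares of all protein-coding genes were 2.64% and 4.01%, and 2 were higher and 2 lower in the ileum, where they were 3.78% and 2.83%. Between regions, 17 of 42 were higher and 13 lower in the WT ileum, against 17.4% and 16.8% of all genes.

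Among genes of uptake, Pnliprp2, a pancreatic-type lipase related to those that split retinyl esters, was at 82.1 and 66.8 CPM in WT colon and at 4.19 and 16.0 CPM in DDX5ΔIEC colon. Its log2 fold change of -3.06 ± 0.53 was the largest of the list but had adjusted p = 0.246, and it ran from -4.15 without DDX5ΔIEC colon replicate 2, where it was called (adjusted p = 0.00327), to -2.22 without replicate 1. In the ileum Pnliprp2 was at 873 to 1395 CPM in all 4 libraries (0.32 ± 0.23). Among binding and transport genes, Stra6l, a homologue of the retinol transporter Stra6, met the criterion in both tissues: 27.2 and 26.3 CPM in WT colon against 15.3 and 21.2, and 27.0 and 30.1 CPM in WT ileum against 17.3 and 19.4. The colon and the ileum of a mouse are not independent samples. The log2 fold changes of Stra6l were -0.57 ± 0.15 and -0.64 ± 0.15 (edgeR, adjusted p = 0.321 and 0.105). The ileal one was called without a filter on low counts (-0.68, adjusted p = 0.0189), in a fit that called many more genes in all. Ttr, a carrier of retinol in plasma, met the criterion in the colon with a log2 fold change of 0.55, but its groups overlapped, at 14.7 and 11.4 CPM in WT and 27.1 and 13.2 CPM in DDX5ΔIEC, and with a library left out it ran from 0.021 to 1.06. Fabp5 (-0.62), which can carry retinoic acid, was lower at the criterion.

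Of the dehydrogenases and reductases, Dhrs9 (0.79), Sdr16c6 (1.47) and Akr1b8 (0.71) were higher and Rdh1 (-1.69) lower at the criterion in the colon, all as log2 fold changes. Akr1b8, an aldo-keto reductase, was at 43.7 and 43.8 CPM in WT colon and 65.0 and 79.9 CPM in DDX5ΔIEC (adjusted p = 0.238 in edgeR and 0.0296 in DESeq2). In the ileum Hsd17b6 (0.79) was higher and Rdh16 (-0.50) lower. Rdh1, Rdh16 and Hsd17b6 are among the genes that share sequence with Rdh7. Of the retinoic acid receptors, Rarg was lower at the criterion in the colon (-0.77, adjusted p = 0.402), and Rarb, itself a target of retinoic acid, was higher in the ileum, at 1.11 and 1.18 CPM in WT and 2.44 and 2.14 CPM in DDX5ΔIEC (1.01 ± 0.39, adjusted p = 0.326). Tgm2, another target, was lower in the colon (-1.34, adjusted p = 0.355), at 18.8 and 22.1 CPM in WT and 3.70 and 15.3 CPM in DDX5ΔIEC, and ran from -2.47 without DDX5ΔIEC colon replicate 2, the only fit that called it (adjusted p = 0.0469), to -0.42 without replicate 1.

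**Figure D5:**
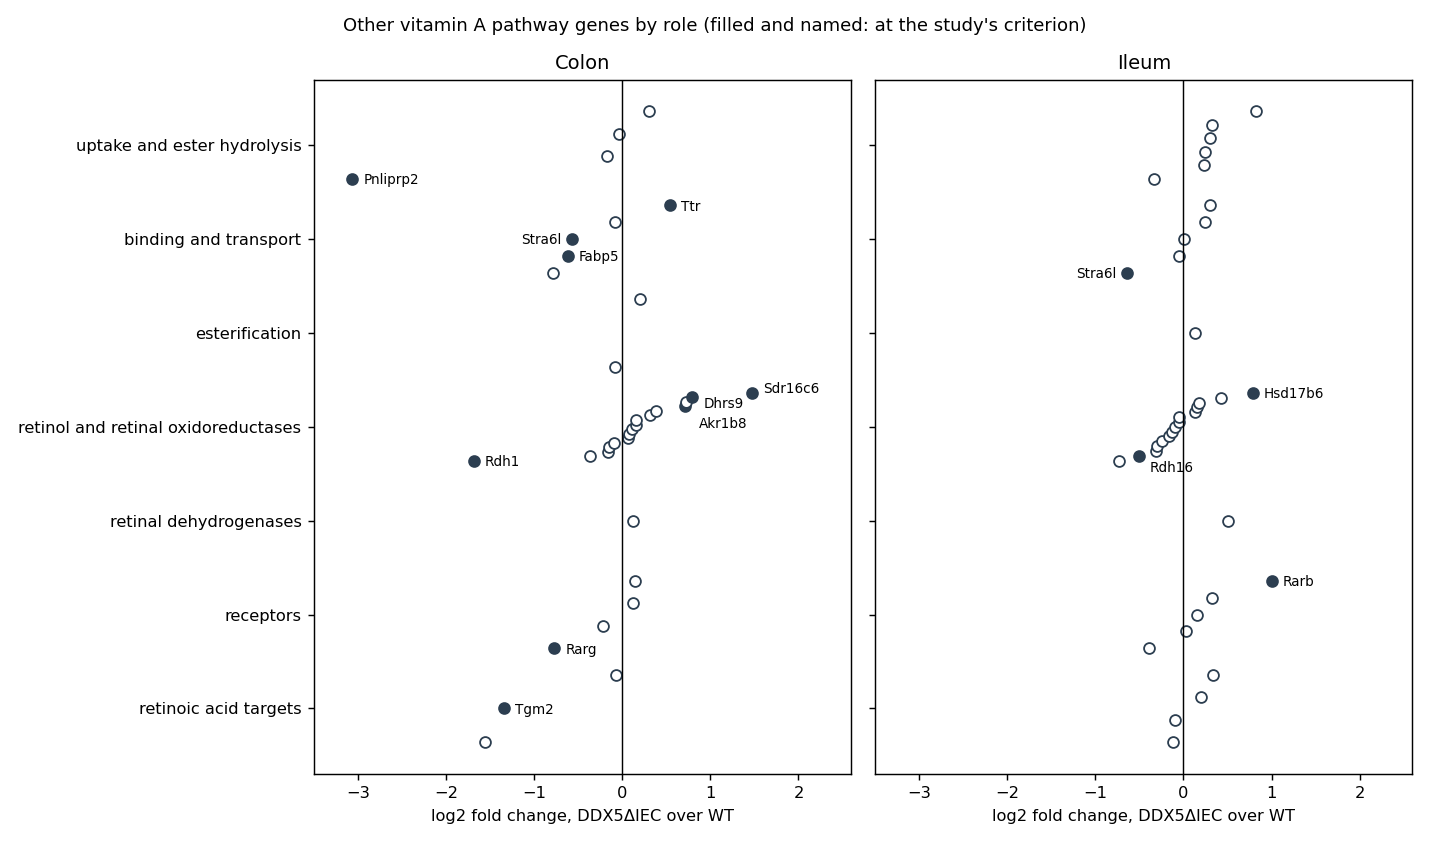
Log2 fold change of DDX5ΔIEC over WT (x axis) of the other vitamin A genes that were tested, by role (y axis), in colon (left, 35 genes) and ileum (right, 37 genes). Filled and named points met the study's criterion (10 in the colon, 4 in the ileum), and none had an adjusted p under 0.05; Pnliprp2 in the colon (-3.06) lies farthest from 0.

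The genes whose log2 CPM followed Rbp2 and Isx most closely over the 8 libraries were sought among 16177 others, by Pearson's r, given as a description because the libraries fall into tissues. For Rbp2 these were Nectin3 (0.995), Gk (0.994) and Slc31a1 (0.993). Each was higher in all ileum than in all colon libraries, as Rbp2 was. For Isx they were Nts (0.990), Gm15971 (0.987) and Pclaf (0.985). All 3, like Isx, were lowest in DDX5ΔIEC colon replicate 1, with Nts at 0.276 CPM there against 4.56 CPM in replicate 2. Both patterns are favoured by the choice of these genes by r over the same 8 libraries.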

How the data were processed

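RNAseq libraries were made with a stranded kit from ribosome-depleted IEC RNA, for colon and ileum of 2 WT and 2 DDX5ΔIEC mice. The submitters' processing notes name STAR 2.6.1a, featureCounts, DESeq2 1.18.1 and the build mm10. The authors deposited one table per tissue, with raw counts per gene (reads with a unique position, on exons), the normalized signal (counts divided by size factors) and, from their own comparison, a log2 fold change with its error, a Wald test score and p-values, which were not used. Gene symbols that a spreadsheet had changed to dates were restored (25 in the colon, 26 in the ileum).

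Counts were tested in R 4.3.3 with edgeR 4.0.16. Within each tissue, genes were filtered with filterByExpr (minimum count 10), scaled by TMM and fitted with terms for replicate number and genotype. The authors' design had a covariate for harvest. The replicate number stood in for it, as the sources used here do not give the harvest of each mouse. Regions and the interaction were tested in 1 fit of 4 groups over 8 libraries, with a gene that 1 table lacks set to 0. Benjamini-Hochberg adjustment covered all genes tested. SE is the log2 fold change divided by the square root of F. CPM are scaled over all 8 libraries, and those per kilobase use the deposited exon lengths. Ratios of few reads carry exact 95% intervals. Within a tissue, each library came from a separate mouse. The p-values of the genotype tests rest on the spread that the replicate number does not take up, estimated with help from all genes. They do not measure the whole spread between mice. The fit for regions and the interaction treated all 8 libraries as independent, although each mouse gave a colon and an ileum library. Colon and ileum libraries of the same genotype and number came from the same mouse: normalized values of 37 genes in the study's supplement, listed by mouse, equal the deposited columns. Deviations of the 2 tissues of a mouse correlated at 0.140 in WT and 0.142 in DDX5ΔIEC.

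All 10 members were described whatever their values. Of the wider list, genes past the criterion or the adjusted threshold were named, and for Isx and Rbp2 the 3 genes of highest r. 1 gene of the wider list is not reported here and is left out of its counts. The members, lists and alternatives were chosen with earlier results of these data known. The alternatives were another block, DESeq2 1.42.0, RLE scaling, other filters, no repeat-like genes, all 8 libraries in 1 fit, and each library left out. The code was checked on simulated counts. Gene positions are from GENCODE M21 (GRCm38). Promoters are from RefSeq (GRCm38.p6). Python 3.11.15 was used for sequences and figures.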

Additional observations from a re-analysis of the deposited data

How the results depend on the processing

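The number of the 10 genes called was stable in some comparisons only. For genotype in the colon it was 0 in edgeR and in the other planned fits, except 1 (Isx) without DDX5ΔIEC colon replicate 2 (range 0 to 1 with a library left out), and 2 by the study's criterion. For genotype in the ileum it was 1, but 2 without a filter on low counts (Bco1 added), 0 in 1 fit of all 8 libraries, 0 with any library left out, and 2 by the criterion. With a library left out it ran from 3 to 4 for region in WT, from 4 to 8 in DDX5ΔIEC and from 0 to 1 for the interaction, which was also 1 without a filter. Of members, the criterion counted 2 in the colon (1 without the block, with DESeq2 and with all 8 libraries; 0 to 5 with a library left out) and 2 in the ileum (4 without a filter; 1 to 3).

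The replicate block decided the ileal call: without it 0 members and 1 gene in all were called, against 98 genes with it. Fits of genotype with a library left out also lack this block, so they cannot separate the loss of a library from that of the block. The study describes its RNAseq mice as pairs of cohoused littermates, but the sources used here do not say which replicate numbers form a pair. Deviations of same-numbered libraries correlated at 0.00559 in the colon and 0.240 in the ileum. With the mouse as replicate block, the regional counts stayed at 6 and 7, and the interaction of Lrat went from -0.13 to 0.0172. The mouse block changed no other call of a member. The regional calls moved in other planned fits with all 8 libraries: Isx and Aldh1a3 in WT and Aldh1a1 in DDX5ΔIEC were each added.

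Over all genes, the colon gave 0 calls, 5 without the block, 116 with DESeq2, 10 with all 8 libraries and 0 to 193 with a library left out. The ileum gave 98, but 39 with DESeq2, 423 without a filter, 20 without the repeat-like genes, 7 with all 8 libraries and 0 to 1 with a library left out. The criterion gave 834 in the colon (463 with DESeq2, 524 to 1531) and 797 in the ileum (362, 616 to 1298). Region in WT gave 5528 (3153 to 3631). The interaction gave 2, but 1 with the mouse as block, 17 with DESeq2, 210 without a filter, 0 with a mean of at least 10 counts and 0 to 30 with a library left out.

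Members that were not called changed sign, including Isx in the colon (-1.02) and the interaction of Rdh7 (1.02). With a library left out, the log2 fold change in the colon ran from -2.24 to 0.0477 for Isx, -1.36 to 0.21 for Lrat, -0.48 to 0.26 for Dhrs3, -0.46 to 1.06 for Aldh1a1 and -0.0840 to 0.53 for Adh1. In the ileum it ran from -0.74 to 0.56 for Rbp2, -0.0656 to 0.0673 for Isx, -0.25 to 0.63 for Rdh7 and -1.23 to 0.49 for Aldh1a3. Ileal Isx was also above 0 without the block (7.06e-04), with DESeq2 (0.00556), RLE (0.00554), a mean of at least 10 counts (8.73e-04) and no repeat-like genes (0.00701). Regional ratios ran from -0.21 to 0.0050 for Dhrs3 in WT, and in DDX5ΔIEC from -0.54 to 0.21 for Dhrs3 and -1.16 to 0.36 for Aldh1a1. The interaction ran from -0.0528 to 2.24 for Isx, -0.25 to 1.04 for Bco1, -0.70 to 0.88 for Lrat, -1.90 to 3.17 for Rdh7 and -0.43 to 0.31 for Dhrs3. The cause was not tested. Fits with a library left out have 1 library in an arm, taken to vary like the other groups.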
